A study of Bos taurus with 10 samples.

Results

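The secreted antimicrobial and acute phase genes described here are SAA3, LTF, LCN2, S100A8, S100A9, S100A12, PIGR, DMBT1 and WFDC2, 9 of 10 genes listed by name for their role in epithelial defence. They were listed by name and role, with no threshold on a measured value. The tenth, SLPI, was not analysed here. The table held 24596 features in all, of which 12834 had a mean of at least 1 RPKM (reads scaled to gene length in kilobases and to library total) over the libraries and were tested. All 9 genes were among the tested features.

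RNA was sequenced from epithelial cells of the isthmus, the uterine end of the oviduct, of heifers (Bos taurus). There were 10 libraries, 5 called cyclic and 5 called pregnant. The cyclic heifers had a sham transfer, and each pregnant heifer was given 50 presumptive zygotes that had been produced in vitro. The comparison addresses whether the presence of embryos is accompanied by a change in the oviduct's RNA.

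Mucosal epithelia secrete proteins that bind, starve or kill microbes, and raise many of them on contact with bacterial products or with cytokines that act through NF-kappaB, STAT3 and C/EBP factors. SAA3 and haptoglobin belong to the acute phase proteins, which the liver makes in bulk during inflammation and which many epithelia also make locally. In the oviduct such proteins enter the fluid in which sperm, oocytes and early embryos reside.

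For 8 of the 9 genes, the difference between the groups was smaller than the SD between libraries of the same group, and PIGR was the exception. On the log2(RPKM + 1) scale, limma-trend with Benjamini-Hochberg adjustment over all tested features called 0 of 9 genes, against 0% of all tested features. At an unadjusted p under 0.05, 1 of the 9, PIGR, differed, against 27.5% of all tested features in either direction. The cyclic and pregnant ranges overlapped for all 9 genes, while 6.96% of tested features had groups that did not overlap. Voom on reads recovered from the values also called 0. Array weights in place of the trend call 37.3% of all tested features, and voom with quality weights calls 38.5%. Each of these settings called 2 of the 9 genes, PIGR and DMBT1. At an adjusted p under 0.1, limma-trend called 0 of the 9 and 7.93% of all tested features. In bulk RNA of this kind, fewer cells of a type and less RNA per cell cannot be told apart.

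**Figure D1:**
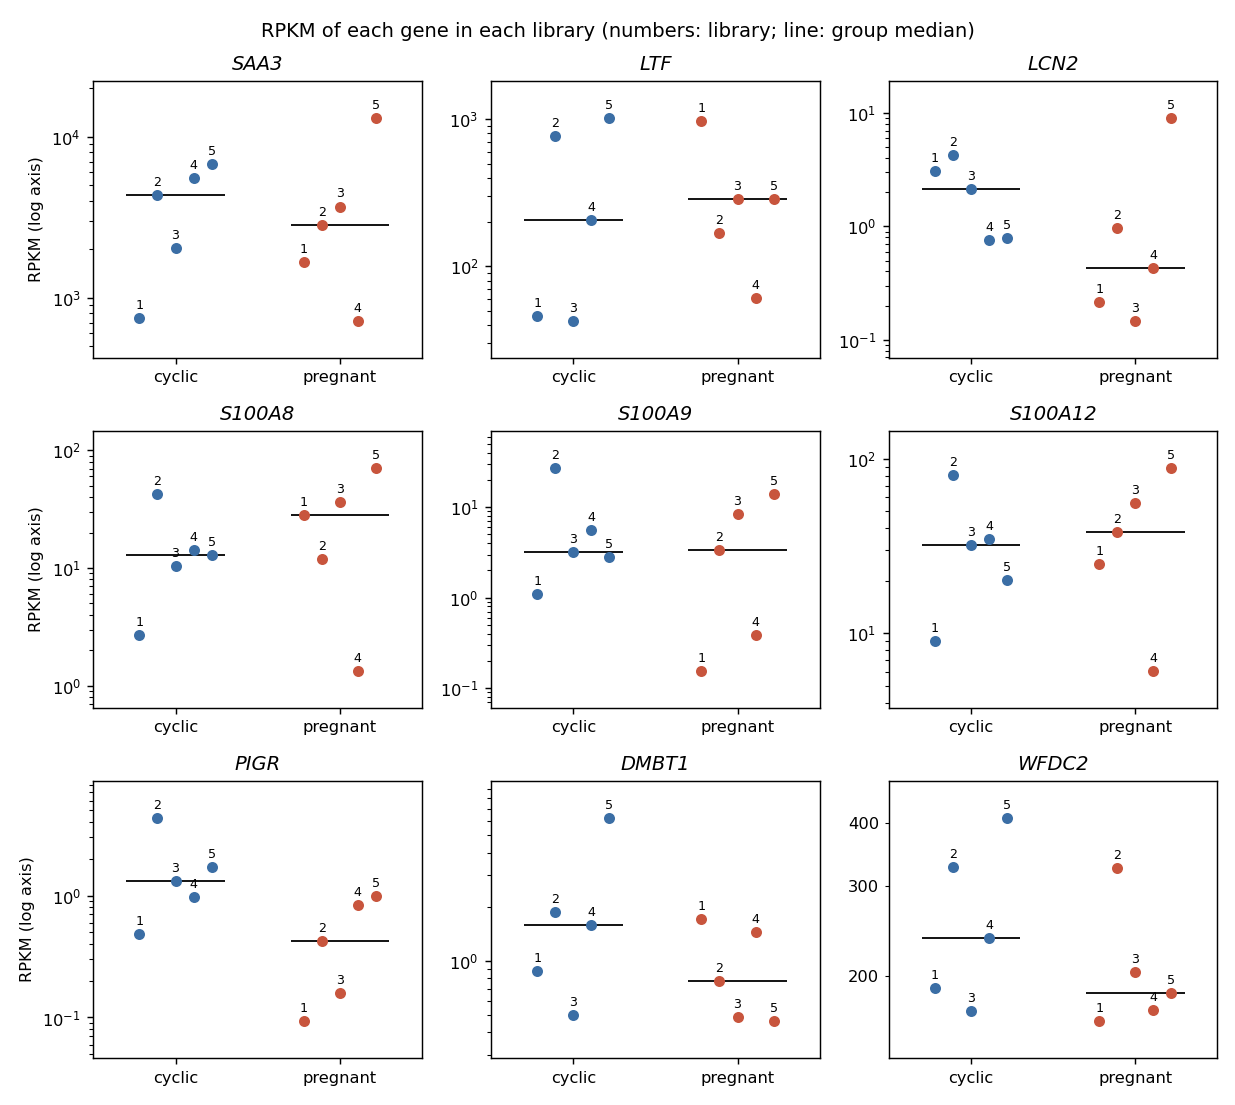
RPKM (log axis, 1 panel per gene) in each cyclic (blue) and pregnant (red) library, with library numbers beside the points and a line at each group's median. The ranges of the groups overlap in every panel, and the range within a group is widest for S100A9 in the pregnant libraries, 90.7-fold.

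Library depth and purity bear on these values. Cyclic 4 had the lowest total recovered from the table, 9.71 M reads (M, mega), and pregnant 5 the highest, 26.1 M, and each read of a 1 kilobase gene adds 0.103 RPKM in cyclic 4 and 0.0383 RPKM in pregnant 5. Intervals given for read numbers cover counting error only. Nothing in the labels says that the libraries came from different animals, and a p-value here reflects only the variation among libraries, which may in part be technical. The epithelial marker EPCAM was at 321 to 420 RPKM in cyclic and 318 to 357 RPKM in pregnant libraries. PAX8 was at 72.8 to 107 RPKM in cyclic and 84.1 to 98.3 RPKM in pregnant libraries. The summed RPKM of 12 secretory epithelium markers was 6355 to 12592 in cyclic and 2044 to 4820 in pregnant libraries. Most of that sum came from the few most abundant of the 12, so it does not measure the share of epithelium. Of these 12 markers, 10 were lower in the pregnant group and 6 of them had an unadjusted p under 0.05, against 11.9% of all tested features. Of 11 tested ciliated cell markers, 9 were lower, 6 at that p, and 2 were higher, 1 at that p. Of 11 tested stromal and smooth muscle markers, 9 were lower, 1 at that p, and 2 were higher, 0 at that p. The part of these shifts in the values below was not tested.

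SAA3 encodes serum amyloid A3, an acute phase protein of epithelia that binds bacterial surfaces and retinol. It was the tenth most abundant feature per length in the table by mean RPKM. Its level in cyclic libraries 1 to 5 was 745, 4335, 2036, 5554 and 6778 RPKM. In pregnant libraries 1 to 5 it was 1656, 2847, 3686, 716 and 13149 RPKM. The highest and the lowest library of all 10 were thus both pregnant, and the cyclic libraries lay between them. However, the exact Poisson 95% interval of pregnant 4, 699 to 733 RPKM, overlapped that of cyclic 1, 728 to 762 RPKM. The level ranged 9.10-fold within the cyclic and 18.4-fold within the pregnant group. The means were 3890 ± 2482 and 4411 ± 5014 RPKM (SD, n = 5 each). On the log2 scale the pregnant group differed by -0.12 (SE 0.77, 95% interval -1.79 to 1.55, limma-trend adjusted p = 0.935), so that a difference of over 2-fold either way was not excluded at this spread. Leaving out pregnant 5 moved the difference to -0.68, and leaving out pregnant 4 turned it to 0.37.

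The closely related gene M-SAA3.2, named for its expression in the mammary gland, was the sixth most abundant feature per length. It measured 678, 4983, 3419, 5291 and 6098 RPKM in cyclic 1 to 5 and 2737, 4482, 5057, 2262 and 11688 RPKM in pregnant 1 to 5. As for SAA3, pregnant 5 was highest, but here cyclic 1 was the lowest library. The group difference was 0.43 on the log2 scale (limma-trend adjusted p = 0.679). SAA3 and M-SAA3.2 lie in the same stretch of 1 chromosome, with SAA2 and SAA4 between them, in the gene order of the RefSeq assembly ARS-UCD2.0. Reads may have been divided between such similar copies, so the level of each copy is uncertain. Summed over both copies, the level was 7984 ± 4564 RPKM in cyclic and 9656 ± 8789 RPKM in pregnant libraries (SD, n = 5 each).

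The balance of the copies was not the same in every library. SAA3 was at 0.317 of the RPKM of M-SAA3.2 in pregnant 4 and at 1.13 of it in pregnant 5. Together they took 0.0808% of all reads in cyclic 1 and 1.41% in pregnant 5. A further serum amyloid A feature, ENSBTAG00000022395, chosen after its values were seen, lay between 80.2 and 411 RPKM in cyclic and between 127 and 1690 RPKM in pregnant libraries. Its group difference of 0.997 on the log2 scale had a limma-trend adjusted p of 0.351.

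LTF and LCN2 act on iron. LTF encodes lactoferrin, a secreted protein that binds iron and damages bacterial membranes. Its level was 45.8, 771, 42.6, 205 and 1025 RPKM in cyclic 1 to 5 and 975, 168, 286, 60.9 and 287 RPKM in pregnant 1 to 5. Cyclic 5, pregnant 1 and cyclic 2 were high, cyclic 1, cyclic 3 and pregnant 4 were low, and the groups overlapped across nearly the whole range. The means were 418 ± 452 and 355 ± 359 RPKM (SD, n = 5 each). The log2 difference was 0.27 (SE 0.97, 95% interval -1.85 to 2.38, limma-trend adjusted p = 0.880), positive although the pregnant mean in RPKM was the lower one. The level ranged 24.1-fold within the cyclic and 16.01-fold within the pregnant group, and LTF had the widest interval of the 9 genes.

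LCN2 encodes lipocalin 2, which captures the siderophores by which bacteria take up iron. It was scarce in most libraries. Cyclic 1 to 5 had 3.08, 4.30, 2.15, 0.764 and 0.789 RPKM, and pregnant 1 to 5 had 0.214, 0.968, 0.146, 0.432 and 9.14 RPKM. All pregnant libraries but pregnant 5 were below 1 RPKM, while pregnant 5 was the highest of all 10. Behind these values stood 193 reads in pregnant 5 but only 3 in pregnant 1 and 2 in pregnant 3, and the exact Poisson 95% interval for the last was 0.0177 to 0.527 RPKM. The group difference was -0.49 on the log2 scale (SE 0.56, 95% interval -1.72 to 0.75, limma-trend adjusted p = 0.598). Without pregnant 5 it was -1.06, still short of the threshold.

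S100A8 and S100A9 encode small calcium-binding proteins that pair to form calprotectin, which withholds zinc and manganese from microbes, and S100A12 encodes a related protein that binds zinc and copper. Neutrophils hold large amounts of all of them, and stressed epithelia make them too. In the RefSeq gene order S100A8, S100A12 and S100A9 follow each other with no other coding gene between them. S100A8 measured 2.70, 42.2, 10.3, 14.1 and 12.9 RPKM in cyclic 1 to 5 and 28.3, 11.9, 36.7, 1.33 and 71.0 RPKM in pregnant 1 to 5. Its highest value was in pregnant 5. The lowest, in pregnant 4, rested on 9 reads, and its exact Poisson 95% interval of 0.608 to 2.52 RPKM overlapped that of cyclic 1, 1.60 to 4.27 RPKM from 18 reads. The difference was 0.53 on the log2 scale (SE 0.85, 95% interval -1.34 to 2.39, limma-trend adjusted p = 0.714).

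S100A9 was lower per length than S100A8 in all 10 libraries. It measured 1.11, 27.3, 3.196, 5.64 and 2.84 RPKM in cyclic 1 to 5 and 0.154, 3.38, 8.49, 0.389 and 14.0 RPKM in pregnant 1 to 5. Cyclic 2 stood above all others, and pregnant 1 was the lowest with 2 reads. The difference was -0.54 on the log2 scale (SE 0.81, 95% interval -2.30 to 1.23, limma-trend adjusted p = 0.694). S100A12 was the most abundant of the 3 genes by mean, at 8.98, 80.7, 32.2, 34.8 and 20.1 RPKM in cyclic 1 to 5 and 24.9, 37.9, 56.0, 6.05 and 88.8 RPKM in pregnant 1 to 5. Pregnant 5 and cyclic 2 were its high libraries, pregnant 4 and cyclic 1 its low ones. Its difference was 0.17 (SE 0.67, 95% interval -1.30 to 1.63, limma-trend adjusted p = 0.892).

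Pregnant 1 stood apart in the balance of these genes. In the other 9 libraries S100A8 was at 1.55 to 5.08 times the RPKM of S100A9. In pregnant 1 the ratio was 184, with an exact 95% counting interval of 50.0 to 1522, from 193 reads of S100A8 and 2 of S100A9. S100A12 was at 2.96 to 15.6 times S100A9 in the other 9 libraries and at 162 times in pregnant 1, with an interval of 44.3 to 1337. Both lower bounds in pregnant 1 were above the ratios of the other 9 libraries, of which pregnant 4 had the widest interval for S100A12 to S100A9, 6.37 to 49.3 from 5 reads of S100A9.

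**Figure D2:**
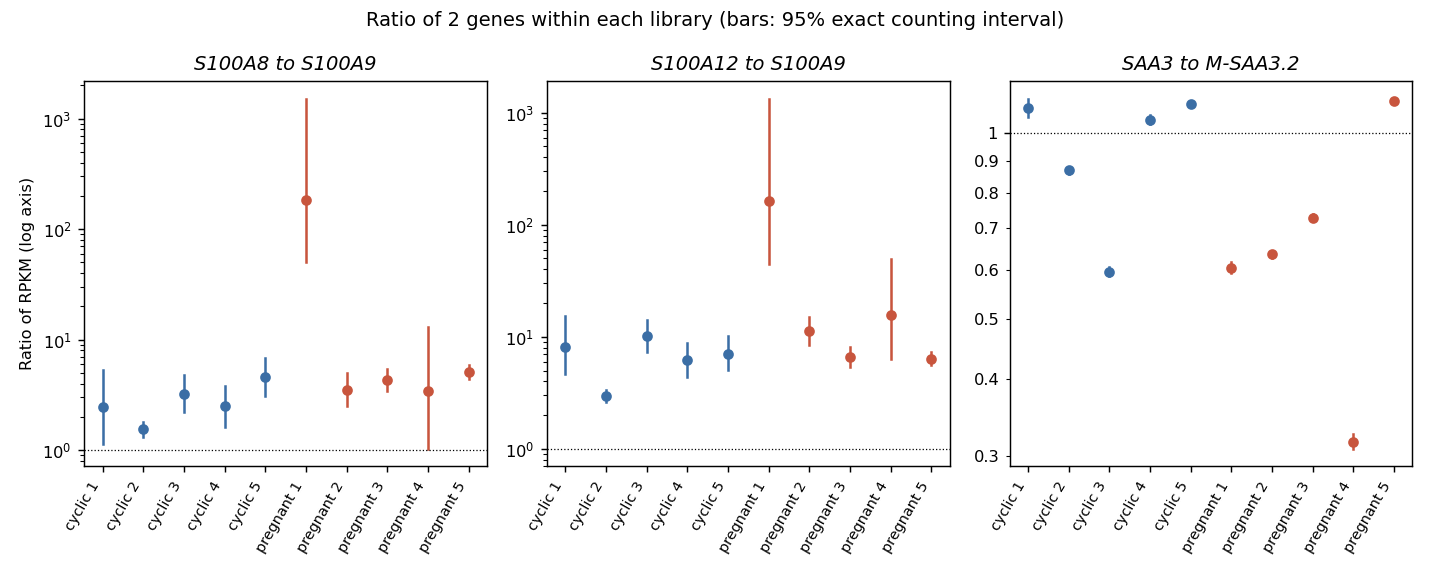
Ratio of RPKM values between pairs of related genes (log axes) in each of the 10 libraries, with exact 95% intervals from the read numbers that cover counting error only. S100A8 to S100A9 and S100A12 to S100A9 reach 184 and 162 in pregnant 1, and SAA3 to M-SAA3.2 runs from 0.317 to 1.13.

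Neutrophil markers were near 0 in the same libraries. Of 15 markers listed, 10 were in the table and 2 passed the filter on low values, among them FCGR3A, an Fc receptor gene, with a log2 difference of 0.18. The summed RPKM of the 10 was 3.16 to 8.30 in cyclic and 3.55 to 5.79 in pregnant libraries. MPO, ELA2 and MMP8, which encode neutrophil granule enzymes, were each at 0 in 9 of 10 libraries. In cyclic 2, which had the highest S100A9, the sum was 4.43 RPKM, and in pregnant 5, which had the highest S100A8 and S100A12, it was 4.98 RPKM. The highest sum, in cyclic 3, went with 10.3 RPKM of S100A8. Macrophage and monocyte markers summed to 25.8 to 44.2 RPKM in cyclic and 25.1 to 42.6 RPKM in pregnant libraries.

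PIGR, DMBT1 and WFDC2 are products of glandular and mucosal epithelia. PIGR encodes the polymeric immunoglobulin receptor, which carries dimeric IgA across the epithelium and is released with it as secretory component. Its level was low, at 0.479, 4.33, 1.30, 0.971 and 1.70 RPKM in cyclic 1 to 5 and 0.093, 0.422, 0.159, 0.832 and 0.990 RPKM in pregnant 1 to 5. All 5 pregnant libraries were below the cyclic median of 1.30 RPKM, but cyclic 1 and cyclic 4 lay within the pregnant range. The reads behind these values ran from 6 in pregnant 1 to 291 in cyclic 2. The means were 1.76 ± 1.51 and 0.499 ± 0.399 RPKM (SD, n = 5 each). The log2 difference was -0.78 (SE 0.32, 95% interval -1.47 to -0.09), with a limma-trend p of 0.0305 before and 0.146 after Benjamini-Hochberg adjustment. An unadjusted p under 0.05 with a lower pregnant level was found for 11.9% of all tested features. With pseudocount 0.1 in place of 1 the difference was -1.61, and without cyclic 2 it was -0.50. Of 3 tested B lymphocyte and plasma cell markers, 2 were higher and 1 lower in the pregnant group. IGJ, the joining chain of dimeric IgA, had a log2 difference of 0.74 (limma-trend adjusted p = 0.218), MZB1 one of 0.60 (adjusted p = 0.103) and PRDM1 one of -0.08 (adjusted p = 0.877). Their part in the level of PIGR was not tested.

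DMBT1 encodes a scavenger receptor-rich glycoprotein of mucosal secretions that aggregates bacteria. It measured 0.882, 1.88, 0.501, 1.59 and 6.24 RPKM in cyclic 1 to 5 and 1.70, 0.775, 0.490, 1.45 and 0.461 RPKM in pregnant 1 to 5. Cyclic 5 was far above the rest, and the other 9 libraries were all below 2 RPKM. The difference was -0.52 on the log2 scale (SE 0.37, 95% interval -1.33 to 0.30, limma-trend adjusted p = 0.382), and it was -0.16 without cyclic 5. WFDC2 encodes a small secreted protein with whey acidic protein domains, a fold shared with protease inhibitors, and is a known product of reproductive tract epithelium. It measured 189, 327, 170, 238 and 409 RPKM in cyclic 1 to 5 and 163, 326, 204, 171 and 185 RPKM in pregnant 1 to 5. It was the steadiest of the 9 genes, with a within-group range of 2.40-fold in cyclic and 2.01-fold in pregnant libraries. Its difference was -0.31 (SE 0.26, 95% interval -0.89 to 0.26, limma-trend adjusted p = 0.449).

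Across the 9 genes, 3 were higher and 6 lower in the pregnant group, with a median log2 difference of -0.31 against 0.01 over all tested features. The 95% intervals were 1.15 to 4.23 log2 units wide, whereas the median width over all tested features was 0.745. Leaving out 1 library turned the sign for SAA3, LTF, S100A9 and S100A12. The other 5 genes kept their sign in each of these fits.

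**Figure D3:**
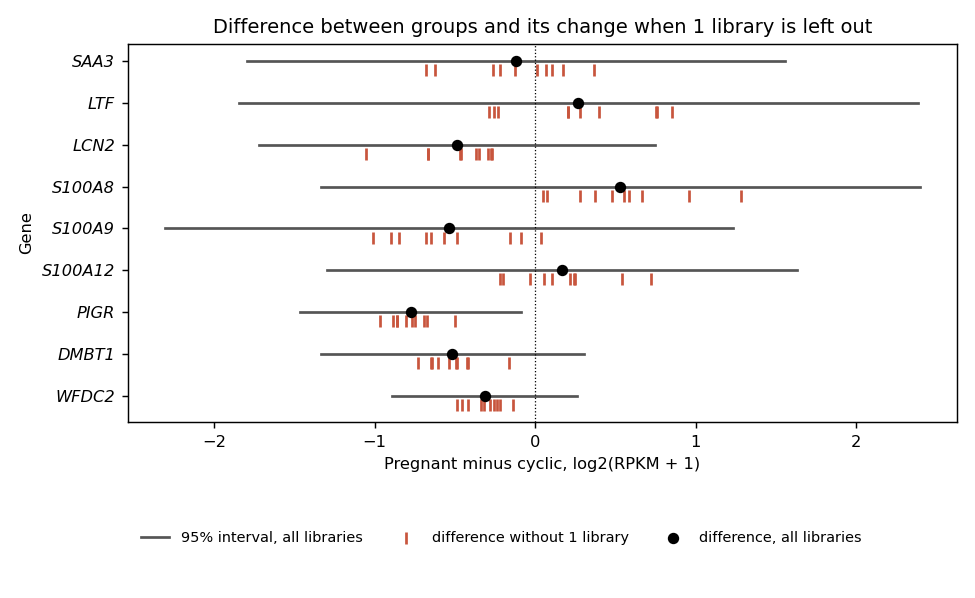
Difference between pregnant and cyclic libraries in log2(RPKM + 1) for each gene (black point), its 95% interval from limma-trend (grey line) and the difference with each library left out in turn (red ticks). Only the interval of PIGR, from -1.47 to -0.09, lies wholly on one side of 0.

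The spread within groups was wide for most of these genes. The SD of log2(RPKM + 1) within groups had a median of 1.26 over the 9 genes and of 0.273 over all tested features. It exceeded the 90th percentile of all tested features for 8 of the 9. LTF had an SD of 1.83 and SAA3 of 1.43, which placed them at the 99.9th and 99.8th percentile. Among tested features with a mean within 2-fold of their own, LTF was at the 99.5th percentile of 194 and SAA3 at the 93.3rd of only 15. Some related genes spread widely too, such as HP with 229-fold within the pregnant group and ENSBTAG00000022395 with 13.3-fold. Both were chosen after their values were seen. Others were steadier, such as WFDC3 with 1.70-fold and CST3 with 2.14-fold within the pregnant group. WFDC2, with 0.47, was the only one of the 9 below the 90th percentile, at 85.2.

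**Figure D4:**
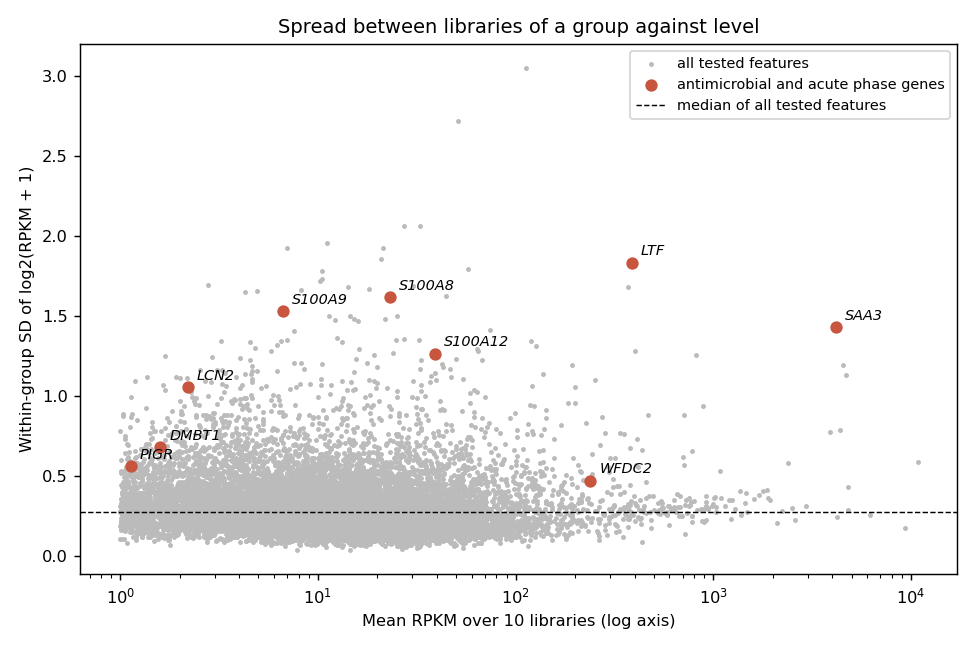
Within-group SD of log2(RPKM + 1) against mean RPKM over the 10 libraries (log axis) for all tested features (grey) and the 9 genes (red), with a dashed line at the median of 0.273. LTF and SAA3 combine a high mean with SDs of 1.83 and 1.43, and WFDC2 has the lowest SD of the 9, 0.47.

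High values were gathered in a few libraries. Cyclic 2 was among the highest 3 libraries for 8 of the 9 genes, and cyclic 5 and pregnant 5 for 5 genes each. Pregnant 4 was among the lowest 3 for 7 genes, and cyclic 1 and pregnant 1 for 5 genes each. The same counts were not taken over all tested features, so they cannot be called particular to these genes. The single highest library was pregnant 5 for SAA3, S100A8, S100A12 and LCN2, cyclic 5 for LTF, DMBT1 and WFDC2, and cyclic 2 for PIGR and S100A9. Both groups therefore held libraries with high and with low levels. The 9 genes together took from 0.0681% of all reads in cyclic 1 to 0.840% in pregnant 5, where SAA3 alone took 0.746%. Pregnant 5, highest for 4 of the genes, also had the highest total, while cyclic 4, with the lowest total, was among the lowest 3 libraries for none of the 9, and the part of depth was not tested.

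**Figure D5:**
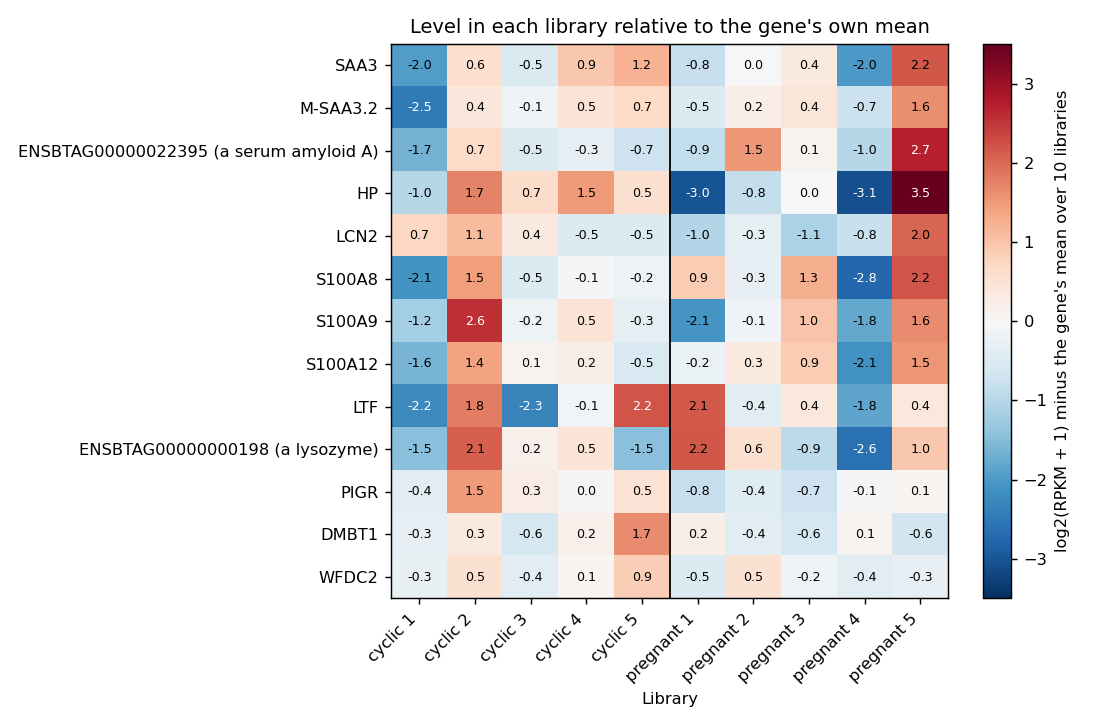
Level of each gene in each library as log2(RPKM + 1) minus the gene's own mean over the 10 libraries (red above, blue below, cyclic libraries left of the line), for the 9 genes and 4 related features. Rows for SAA3, M-SAA3.2, LCN2 and HP are red in pregnant 5, and LTF differs from them in being high in pregnant 1 and near its mean in pregnant 5.

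For each gene, the nearest profiles over the 10 libraries were picked from all tested features. Distance was the mean absolute difference between log2(RPKM + 1) values after each gene was centred on its own mean. SAA3 was nearest to M-SAA3.2, at 0.457 log2 units, where the median over all tested features was 1.08. S100A8 and S100A9 were each nearest to S100A12, at 0.517, and S100A12 was nearest to the metallothionein MT2, at 0.400. PIGR was nearest to RHOV, at 0.121, and WFDC2 to TULP4 at 0.143. DMBT1 was nearest to CBS, at 0.211, LCN2 to SERPINB7, at 0.462, and LTF to PRODH, at 0.681. The second nearest were MT1E_2 for SAA3, PI3 for S100A8, MT2 for S100A9, CCNJL for S100A12, WARS for PIGR, VDR for WFDC2, SLC35C1 for DMBT1, VSNL1 for LCN2 and LAT_1 for LTF. These likenesses rest on 10 libraries and on levels that share library depth.

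A lysozyme feature, ENSBTAG00000000198, chosen after its values were seen, shared the wide range of LTF but not its order. It measured 82.4, 991, 262, 321 and 83.4 RPKM in cyclic 1 to 5 and 1034, 341, 121, 36.5 and 445 RPKM in pregnant 1 to 5. Cyclic 2 and pregnant 1 were high for both genes, whereas cyclic 5, the highest library for LTF, was among the lowest for this lysozyme. The ratio of the lysozyme to LTF ran from 0.0814 in cyclic 5 to 6.16 in cyclic 3. Cattle have many similar lysozyme genes, so reads may have been divided among them. The group difference was 0.06 (limma-trend adjusted p = 0.973).

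Of the other acute phase genes listed, 24 of 27 were in the table and 8 were tested. Among these 3 were higher and 5 lower in the pregnant group, 3 of the lower ones had an unadjusted p under 0.05, against 11.9% of all tested features, none was called, and the median log2 difference was -0.68. Haptoglobin, HP, which binds free haemoglobin, was chosen after its values were seen. It measured 6.38, 47.9, 22.2, 40.02 and 20.5 RPKM in cyclic 1 to 5 and 0.810, 7.23, 13.8, 0.731 and 167 RPKM in pregnant 1 to 5. Like LCN2, it was low in pregnant 1 and pregnant 4 and highest in pregnant 5. Unlike LCN2, which was lowest in pregnant 3, HP was near its mean log2 level there. The difference for HP was -1.37 (SE 1.08, limma-trend adjusted p = 0.425). SERPING1, the C1 inhibitor of complement, and A2M, a broad protease inhibitor, had the smallest p, with differences of -1.16 and -0.88.

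Of the other secreted antimicrobial genes, 6 were at 0 in every library and 13 more had a mean below 1 RPKM. Of 41 listed, 38 were in the table and 19 were tested, of which 11 were higher and 8 lower, with a median of 0.03. None was called, and 1 lower gene had an unadjusted p under 0.05, against 11.9% of all tested features. That gene was CST3, the secreted protease inhibitor cystatin C, at 71.9 ± 9.44 RPKM in cyclic and 40.8 ± 14.4 RPKM in pregnant libraries (SD, n = 5 each). Its groups did not overlap, as for 6.96% of all tested features, and its difference was -0.86 (limma-trend adjusted p = 0.0934). BPIFB1, a secreted lipid-binding protein of airway and reproductive tract mucus, was the most abundant of the 19, with a difference of 0.18. Of 14 other S100 genes listed, 12 were in the table and 11 were tested, with 6 higher, 5 lower and a median of 0.11. An unadjusted p under 0.05 was found for 1 higher gene, against 27.5% of all tested features in either direction. That gene was S100G, a calcium carrier of epithelia, at 12.01 ± 6.72 RPKM in cyclic and 39.4 ± 21.3 RPKM in pregnant libraries (SD, n = 5 each), with a difference of 1.62 (SE 0.47, limma-trend adjusted p = 0.0967). S100A10 and S100B had differences of 0.34 and 0.12.

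Receptors and carriers for these proteins or for bacterial products were measured in 13 of 16 listed cases, and 12 were tested. Of these 4 were higher and 8 lower, 3 of the lower ones had an unadjusted p under 0.05, against 11.9% of all tested features, and the median was -0.25. LRP1, an endocytic receptor that takes up lactoferrin and A2M complexes, had a difference of -0.60 with groups that did not overlap, CD14, the co-receptor for lipopolysaccharide, had -1.02, and ANXA2 had -0.23. Among 21 tested genes of 32 listed for cytokine and NF-kappaB signalling upstream of these genes, 17 had a lower and 4 a higher pregnant level, and the median was -0.35. An unadjusted p under 0.05 was found for 9 of the lower and 1 of the higher ones, against 27.5% of all tested features in either direction and 11.9% lower, and none was called. SOCS3, a feedback inhibitor of cytokine signalling induced by STAT3, had a difference of -1.20, and NFKB2, a subunit of NF-kappaB, had -0.97. Both were named for the smallest p of their list, and each had a limma-trend adjusted p of 0.0934. Their groups did not overlap, as for LRP1 and for 6.96% of all tested features. EHF, an epithelial ETS factor, had a difference of -0.12.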

How the data were processed

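RNA of isthmic oviduct epithelium was measured in 5 cyclic and 5 pregnant libraries, grouped by the treatment in the labels. Per the labels' protocols, RNA was isolated with Trizol, treated with DNase and, after oligo-dT selection, made into stranded TruSeq libraries. Aligner, counter, genome build and annotation were not given in the sources used here. The authors normalised reads to RPKM, by gene length and library total, before the table was deposited; its header says only expression, and the unit was inferred here from steps that depend on gene and library. Library totals and feature lengths were recovered by finding values at which reads become whole, checked against the lengths of 13 of 13 mitochondrial genes, with a tolerance of 0.02 reads plus rounding; 12791 of 12834 tested features were resolved.

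The test was limma-trend (limma 3.58.1, R 4.3.3) with values as log2(RPKM + 1), for features whose mean was at least 1 RPKM, with group as the only term, Benjamini-Hochberg adjustment over all 12834 and calls at an adjusted p under 0.05. This scale understates the change of low genes. The scripts were tested on simulated data. Exact Poisson and binomial 95% intervals cover counting error only. The genes, the lists and the tests were chosen with earlier results of these data known. Named genes were all 9 genes, the 2 tested features with the nearest profile to each and, per list, up to 2 genes of smallest p and the one of highest mean; a marker gene within this rule is not reported here. Alternatives were a pseudocount of 0.1, no filter, a mean of at least 5 RPKM, median-ratio scaling, array weights in place of the trend and a robust prior. Further ones were a replicate block, a threshold of 0.1, each library left out and, added after seeing the data, voom on recovered reads. Listed genes were matched to the table's features by name, or else by the symbol in a feature's RefSeq description. The RefSeq table of assembly ARS-UCD2.0 gave the mitochondrial gene lengths and, from its coordinates, the order of genes on a chromosome. Python 3.11.15 with pandas 2.3.3, numpy 2.4.6, scipy 1.17.1 and matplotlib 3.10.9 served for tables and plots.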

Additional observations from a re-analysis of the deposited data

Results flagged for a closer look

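In 7 of the 18 sets of 5 values (9 genes in 2 groups), 1 library lay so far from its nearest neighbour that the gap took more than 0.71 of the group's range in RPKM, Dixon's 95% critical value. Chance flags about 1 in 20 such sets where values are normally distributed, which RPKM values, with their long upper tail, are not. On the log2(RPKM + 1) scale 1 set passed, LCN2 in the pregnant group, with 0.752.

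Among the pregnant libraries, the gap share was 0.909 for LCN2 and 0.761 for SAA3, both with pregnant 5 at the top. It was 0.753 for LTF, with pregnant 1 at the top, and 0.75 for WFDC2, with pregnant 2 at the top. Among the cyclic libraries, it was 0.827 for S100A9 and 0.712 for S100A8, both with cyclic 2 at the top, and 0.76 for DMBT1, with cyclic 5 at the top. The outlying library was the highest of its group in each of the 7 sets.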

How the results depend on the processing

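Over all tested features the number of calls was 0, and it became 4789 (37.3%) with array weights in place of the trend. It was 4922 (38.5%) with voom and quality weights on recovered reads, and 1018 (7.93%) at an adjusted p under 0.1. With 1 library left out it ranged from 0 to 2213, the latter without cyclic 3, and was 56 without pregnant 4. Array weights and voom with quality weights each called 2 of the 9 genes, PIGR and DMBT1, in limma with Benjamini-Hochberg adjustment. Their differences were -1.31 (adjusted p = 0.009) and -1.05 (adjusted p = 0.029) with array weights. Those weights counted pregnant 3 as 3.13 and cyclic 2 as 2.78 but cyclic 3 as 0.313. LTF reversed to -0.89 and -0.87 under the same settings, and the median of the other antimicrobial genes to -0.16 and -0.21. The median of the other S100 genes was -0.0090 with a mean of at least 5 RPKM, a filter that left PIGR, DMBT1 and LCN2 untested.

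With 1 library left out, the differences ranged from -0.28 to 0.85 for LTF, -0.68 to 0.37 for SAA3, -0.22 to 0.72 for S100A12 and -1.01 to 0.038 for S100A9. The list medians ranged from -0.17 to 0.17 for other antimicrobial and from -0.041 to 0.24 for other S100 genes. The cause of these shifts was not tested. Of 168 alternatives for the 9 genes, 150 kept direction and side of the threshold, 14 reversed and 4 passed the threshold. With the replicate block 0 features were called; the deviations of same-numbered libraries correlated at -0.34 to 0.28, and only the libraries numbered 4 were each other's best match, so the numbers were not taken as pairs. Alternatives needing deposited counts were not run. Values of PIGR, LCN2, S100A8 and S100A9 that rest on fewer than 10 reads are limited by depth.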

Other observations

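A few further defence genes, chosen after their values were seen, are given here. Of the other antimicrobial genes above 0 in any library, pregnant 5 was the highest library for 5 of 32, as was pregnant 3. Of the other acute phase genes above 0, pregnant 5 was highest for 5 of 19 and cyclic 4 for 4. TAP, the tracheal antimicrobial peptide, a bovine beta-defensin, was at 7.38 RPKM in pregnant 5 and between 0 and 0.505 RPKM in the other 9 libraries. LAP, the lingual antimicrobial peptide of the same family, was at 5.50 RPKM in pregnant 5 and between 0.123 and 1.88 RPKM elsewhere. PTX3, a pentraxin that opsonises microbes, was at 2.35 RPKM in pregnant 5 and between 0.032 and 0.600 RPKM elsewhere. CCL20, a chemokine with antimicrobial activity, was instead at 17.3 RPKM in cyclic 2 and 9.18 RPKM in cyclic 5, with no more than 2.27 RPKM in any other library. C3, the central complement component, was at 175 ± 77.2 RPKM in cyclic and 78.1 ± 67.2 RPKM in pregnant libraries (SD, n = 5 each), with a log2 difference of -1.69 (limma-trend adjusted p = 0.149).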
